A study of Homo sapiens with 6 samples.

Results

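The recovery of promoter DNA with an antibody to NuMA was compared with its recovery with non-specific IgG, after each pull-down had been set against the sheared chromatin it was taken from. The quantity was a difference of differences per promoter window: the log2 ratio of the NuMA ChIP libraries to the NuMA input, minus the log2 ratio of the IgG ChIP libraries to the IgG input. It is called the corrected difference here, and a value of 1 means that the ratio to input was 2-fold larger in the NuMA arm. All 6 libraries of the series and all 19957 windows of the promoter table entered the comparison, each window spanning 1000 bp to either side of a transcription start site, and 17226 windows had enough counts to be tested.

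Each library came from MRC5, a fibroblast cell line derived from human lung, of wild-type genotype and with no treatment named in the labels. The groups were NuMA ChIP with 2 libraries, IgG ChIP with 2 libraries, NuMA input with 1 library and IgG input with 1 library. The labels write the NuMA samples as NuMA (TDIF). They do not say whether the replicates were separate cultures, so the p-values measure the spread between these libraries, which may be technical, and all libraries share 1 cell line. Each input was a single library whose spread was taken from the ChIP groups.

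NuMA, encoded by NUMA1, is a large coiled-coil protein of the interphase nucleus that moves to the spindle poles in mitosis, where it links microtubules to the motor dynein and helps to orient the spindle. The title of the series places it in DNA repair. In ChIP, DNA is cross-linked to protein, sheared and pulled down with an antibody. IgG that recognises no chromatin protein measures what the beads and the handling retain, and an input library measures how well each window is sheared, amplified and mapped before any pull-down.

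The promoters with the clearest differences are shown by their sequence, so that the CG content of these 8 can be compared. Of the named windows with a RefSeq promoter entry (GRCh38.p14), these are the 4 with the smallest p-values in each direction. Each line gives the 250 bases upstream of the annotated start, 5′ to 3′, with the CG dinucleotides in capitals. The first 4 promoters had a higher ratio to input with the NuMA antibody.
USF2 (chr19:35268712-35268961, plus strand): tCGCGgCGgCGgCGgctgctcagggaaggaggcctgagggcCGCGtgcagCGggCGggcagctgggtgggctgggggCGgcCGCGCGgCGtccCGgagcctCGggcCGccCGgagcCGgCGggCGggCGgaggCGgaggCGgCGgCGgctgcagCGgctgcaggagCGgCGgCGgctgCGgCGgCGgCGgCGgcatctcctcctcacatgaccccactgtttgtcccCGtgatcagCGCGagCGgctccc
BAG3 (chr10:119651130-119651379, plus strand): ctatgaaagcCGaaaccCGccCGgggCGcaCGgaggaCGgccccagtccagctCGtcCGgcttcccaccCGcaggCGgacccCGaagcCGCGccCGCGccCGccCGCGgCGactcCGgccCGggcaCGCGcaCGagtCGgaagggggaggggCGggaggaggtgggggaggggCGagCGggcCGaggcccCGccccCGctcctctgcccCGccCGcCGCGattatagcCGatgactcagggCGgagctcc
YPEL5 (chr2:30146757-30147006, plus strand): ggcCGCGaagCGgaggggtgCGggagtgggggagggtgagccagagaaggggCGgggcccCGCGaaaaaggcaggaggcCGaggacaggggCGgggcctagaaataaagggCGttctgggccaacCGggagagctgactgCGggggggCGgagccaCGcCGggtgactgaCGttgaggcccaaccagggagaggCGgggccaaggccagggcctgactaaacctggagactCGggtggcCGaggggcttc
CCDC85C (chr14:99604208-99604457, minus strand): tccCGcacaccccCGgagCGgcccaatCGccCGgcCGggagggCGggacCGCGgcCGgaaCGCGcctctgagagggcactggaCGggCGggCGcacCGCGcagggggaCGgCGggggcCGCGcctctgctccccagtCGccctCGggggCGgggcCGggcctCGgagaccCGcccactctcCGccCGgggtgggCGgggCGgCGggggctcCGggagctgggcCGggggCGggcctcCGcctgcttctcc

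These 250-base stretches held 39 CG dinucleotides at USF2, 37 at BAG3, 19 at YPEL5 and 36 at CCDC85C. The other 4 had a lower ratio to input with the NuMA antibody than with IgG.
ZNF793 (chr19:37506689-37506938, plus strand): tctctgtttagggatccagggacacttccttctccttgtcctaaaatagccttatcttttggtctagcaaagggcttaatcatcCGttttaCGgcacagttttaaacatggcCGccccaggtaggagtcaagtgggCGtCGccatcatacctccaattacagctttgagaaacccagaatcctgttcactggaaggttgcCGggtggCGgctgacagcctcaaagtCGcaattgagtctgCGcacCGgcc
LAMB3 (chr1:209652426-209652675, minus strand): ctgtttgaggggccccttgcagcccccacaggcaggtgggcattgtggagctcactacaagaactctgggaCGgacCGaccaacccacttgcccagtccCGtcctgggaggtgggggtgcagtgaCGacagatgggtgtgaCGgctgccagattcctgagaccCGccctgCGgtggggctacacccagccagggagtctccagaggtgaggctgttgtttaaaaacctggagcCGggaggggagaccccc
GZMB (chr14:24634191-24634440, minus strand): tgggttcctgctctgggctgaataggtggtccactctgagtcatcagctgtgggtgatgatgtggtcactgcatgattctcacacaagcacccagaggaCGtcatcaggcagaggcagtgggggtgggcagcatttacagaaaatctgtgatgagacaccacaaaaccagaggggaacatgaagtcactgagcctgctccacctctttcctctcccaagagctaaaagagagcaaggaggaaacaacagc
GABRG1 (chr4:46124055-46124304, minus strand): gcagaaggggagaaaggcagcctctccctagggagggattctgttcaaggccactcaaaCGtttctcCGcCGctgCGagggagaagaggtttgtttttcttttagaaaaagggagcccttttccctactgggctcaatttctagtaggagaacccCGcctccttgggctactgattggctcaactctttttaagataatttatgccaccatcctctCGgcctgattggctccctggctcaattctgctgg

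Here the counts were 10 CG dinucleotides at ZNF793, 8 at LAMB3, 1 at GZMB and 6 at GABRG1. The 4 promoters of the first group each held more than any of the second. These 8 were picked by p-value and do not stand for all calls. CpG observed over expected relates the CG dinucleotides to base composition, with a median of 0.77 over tested windows with an entry. Among other lower windows it was 0.994 at CSTF2T and 0.942 at DBF4B, but 0.17 at AHSG and 0.223 at PLA2G12B. All 8 sequences lie within the counted windows.

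Of the 17226 windows tested, 209 (1.21%) had a higher and 692 (4.02%) a lower corrected difference at an adjusted p below 0.05, together 5.23% (edgeR quasi-likelihood test, Benjamini-Hochberg adjustment). Higher windows included those of transcription factors (USF2, CEBPA) and of the growth factor receptor FGFR3, and lower windows included those of genes made in lymphocytes (GZMB, CD3E), liver (AHSG) or skin (IVL). Both sets were mixed. Higher windows also included COCH of the inner ear and CPLX1 of the synapse. Lower windows also included the malate dehydrogenase gene MDH1 and the zinc finger gene ZNF793, which had the smallest p-value among them. The median corrected difference was 2.56 in the higher windows and -2.82 in the lower ones, against -0.17 over all windows tested. The smallest called difference was 2.19 upward and 2.10 downward in absolute log2, so every call was a difference of more than 4-fold. The median standard error was 0.82, compared with 0.58 in either arm alone.

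**Figure D1:**
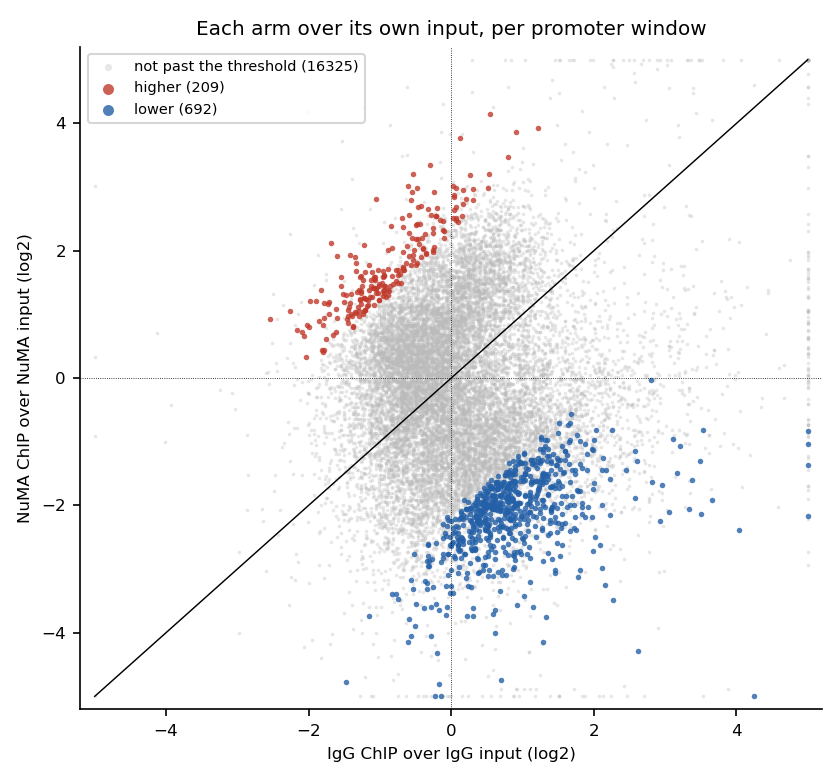
Log2 ratio of IgG ChIP to IgG input (x axis) and of NuMA ChIP to NuMA input (y axis) for each of the 17226 windows tested; values beyond 5 are drawn at 5, and the diagonal marks a corrected difference of 0. The 209 higher windows lie above the diagonal, mostly at negative IgG values, and the 692 lower windows lie below it, mostly at positive IgG values.

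The number of calls depended on the method. DESeq2 passed no window in either direction on the same 17226, with 1969 windows at an unadjusted p below 0.05 against 4050 with edgeR and a smallest adjusted p of 0.0817. Scaling the libraries on the flanks of the metagene profile, in place of the trimmed mean of M values (TMM), moved the median of all windows by 1.36 and gave 81 higher windows and 1 lower, so that 98.8% of calls were higher against 23.2%. Directions are therefore relative to the median promoter window under TMM. Each ChIP library also moved the counts: 81 windows were higher and 301 lower without NuMA ChIP 1, 1149 and 809 without NuMA ChIP 2, 100 and 291 without IgG ChIP 1, and 26 and 258 without IgG ChIP 2.

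**Figure D2:**
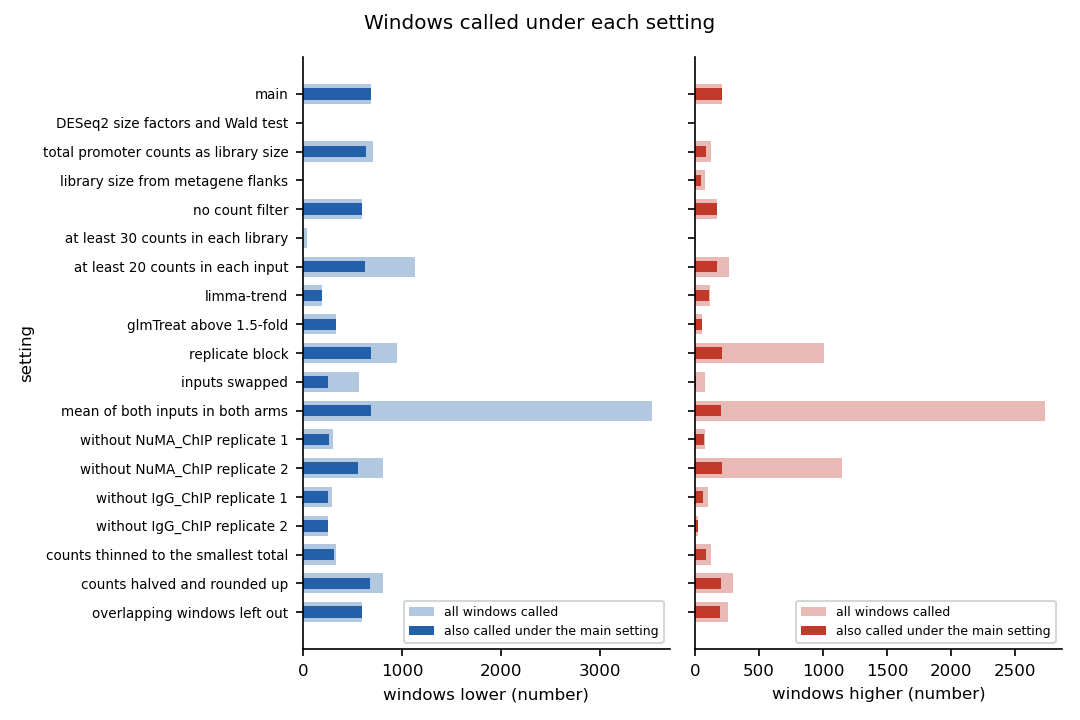
Number of windows lower (left) and higher (right) on the x axes under each setting (y axis), pale bars for all windows called and dark bars for those also called under the main setting. The main setting gives 692 and 209, the mean of both inputs gives 3529 and 2732, and DESeq2 gives 0 and 0.

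Both arms contributed to the calls by their fitted values. In 185 of the 209 higher windows (88.5%) the fitted NuMA ChIP level was above its input and the IgG ChIP level below its own, a combination found in 22.7% of all windows tested. The reverse combination held in 635 of the 692 lower windows (91.8%), against 29.8% of all. The medians in the higher windows were 1.60 for NuMA over its input and -0.96 for IgG over its input, and in the lower windows -2.05 and 0.79. These signs and medians enter the corrected difference itself and are given as its make-up, with no test. Tested alone over all windows, the NuMA arm passed in 1413 windows upward and 1979 downward, and the IgG arm in 2 and 1. In the direction of the call, the NuMA arm passed in 132 of the 209 higher windows (63.2%). It did so in 601 of the 692 lower windows (86.8%), against 19.6% of all windows tested. These tests share their libraries with the calls. The ratios of both NuMA libraries lay beyond those of both IgG libraries in 209 of 209 higher and 691 of 692 lower windows, where 34.9% and 39.3% of all windows tested did so in the respective direction. The same libraries gave the calls, so this separation follows largely from the selection of the windows and is no separate support.

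The inputs differed on the same windows. Over all windows the log2 difference between the NuMA input and the IgG input had a median of -0.01 and quartiles of -0.32 and 0.33, and no window passed the test of it (115 had an unadjusted p below 0.05). In 205 of the 209 higher windows (98.1%) the NuMA input was the lower of the pair, against 50.6% of all windows, with a median input difference of -0.72. Among the 692 lower windows the NuMA input was the higher of the pair in 551 (79.6%, against 49.2% of all), with a median of 0.38. A low NuMA input raises the corrected difference by construction. With the inputs exchanged between the arms, 6 of the 209 higher and 251 of the 692 lower windows passed in the same direction. With the mean of both inputs in both arms, which reduces to NuMA ChIP against IgG ChIP, 203 of the 209 and all 692 passed, among 2732 higher (15.9%) and 3529 lower windows (20.5%). That comparison shares the ChIP libraries with the calls and has a smaller median standard error (0.49 against 0.82). Passing it is therefore no separate support.

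The higher windows were led by USF2, whose product is a basic helix-loop-helix transcription factor. Its window had 196 and 95 counts in the NuMA ChIP libraries over an input of 33, against 28 and 5 in the IgG ChIP libraries over an input of 82. The NuMA ChIP libraries thus lay above, and the IgG ChIP libraries below, their inputs. In CPM, counts scaled to the library size, the NuMA ChIP level was 184 ± 55.2 (SD, n = 2) and the IgG ChIP level 28.5 ± 21.8 (SD, n = 2). The corrected difference was 3.80 ± 0.79 (SE), a 14-fold larger ratio to input (adjusted p = 0.00111).

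CEBPA, a transcription factor of adipocyte, liver and myeloid differentiation, had the highest NuMA ChIP counts of the named higher windows, 398 and 180, over an input of 36, and 46 and 24 IgG ChIP counts over an input of 79. Both IgG ratios were near 0 (-0.38 and -0.57), and the corrected difference of 3.46 ± 0.98 (adjusted p = 0.0202) came mainly from the NuMA arm. That arm includes the low NuMA input, and without the inputs NuMA ChIP against IgG ChIP had a log2 value of 2.42 ± 0.57. COCH, which encodes an extracellular matrix protein of the inner ear, had 345 and 173 NuMA ChIP counts over an input of 37, and 47 and 18 IgG ChIP counts over an input of 76. Its pattern was that of CEBPA, with a corrected difference of 3.36 ± 0.94 (adjusted p = 0.0189). CPLX1, a complexin of synaptic vesicle release, had 255 and 103 counts over an input of 17 with NuMA, and 48 and 7 over an input of 51 with IgG. The difference was 3.65 ± 0.84 (adjusted p = 0.00387), and its IgG libraries fell on opposite sides of their input.

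FGFR3, a receptor for fibroblast growth factors, had 247 and 97 NuMA ChIP counts over an input of 44, and 25 and 8 IgG ChIP counts over an input of 70. The corrected difference was 3.35 ± 0.81 (adjusted p = 0.00642). The window of BAG3, a co-chaperone of the HSP70 proteins, had 144 and 68 counts over 30 with NuMA, and 20 and 11 over 64 with IgG. YPEL5 had 95 and 65 over 35, and 14 and 10 over 74. The NuMA ChIP libraries were at 164 and 104 CPM at BAG3 and lay closer together at YPEL5, at 108 and 99.2 CPM. The corrected differences were 3.14 ± 0.74 at BAG3 (adjusted p = 0.00488) and 3.10 ± 0.74 at YPEL5 (adjusted p = 0.00534). Both passed with any 1 of the 4 ChIP libraries left out, as did only 1 other higher window with a symbol, FIGLA, which encodes an oocyte transcription factor (2.89 ± 0.75) and was singled out after its values were seen. CCDC85C had 180 and 71 NuMA ChIP counts over 53, and 28 and 4 IgG ChIP counts over 97, with a difference of 3.19 ± 0.76.

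The other named higher windows had fewer counts. ABHD15, PUSL1, SCYL3, B3GAT1 and FBXW5 had corrected differences from 3.25 (FBXW5, an F-box protein) to 3.51 (PUSL1), and between 0 and 6 counts in the second IgG ChIP library. Those of ABHD15, PUSL1 and FBXW5 overlap a neighbouring window by 914, 957 and 1453 bp. How reads in a shared stretch were counted, or whether they were left out, is not given. In the second IgG ChIP library, the shallowest of the 6, these 5 promoters rested on few reads. Without that library 26 windows were higher, 22 of them among the 209.

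**Figure D3:**
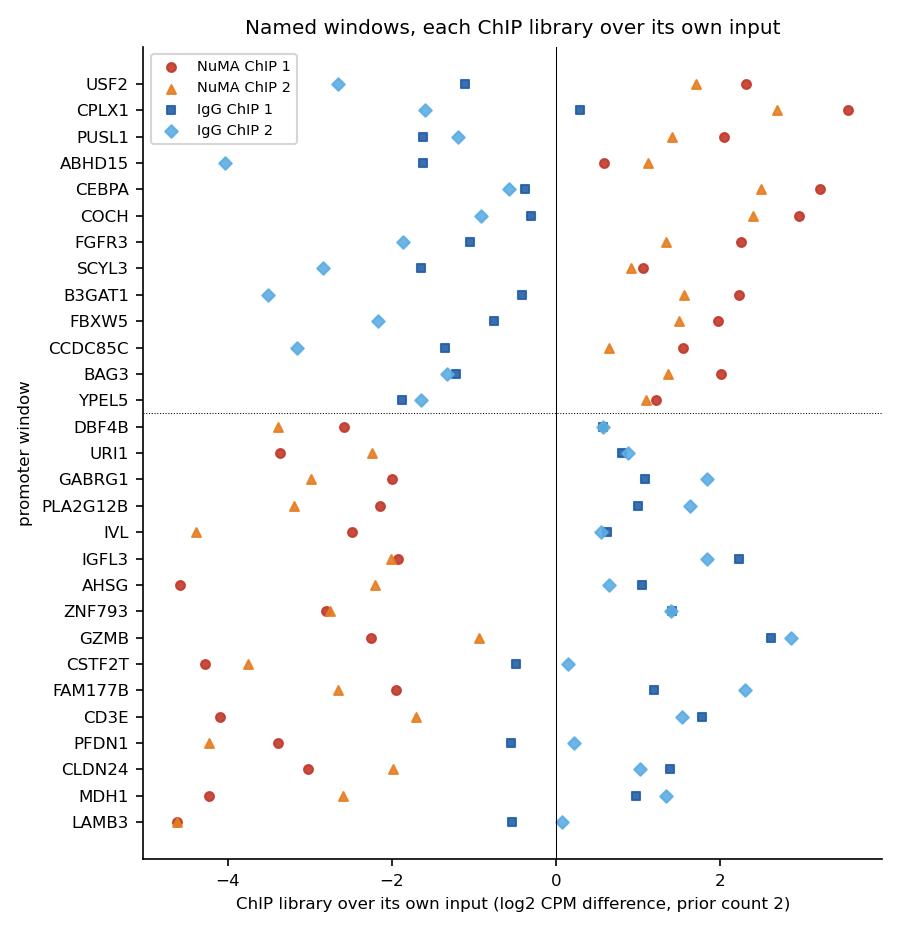
Log2 CPM difference between each ChIP library and its own input (x axis) for the named windows past the threshold (y axis), with higher windows above the dotted line and lower windows below it. In every row shown the 2 NuMA libraries lie to one side of the 2 IgG libraries. This was a condition for naming all rows but those with at most 3 counts in a ChIP group, and is no sign of replicate agreement.

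Among the lower windows the smallest p-value belonged to ZNF793, a zinc finger gene on chromosome 19. It had 9 and 7 counts in the NuMA ChIP libraries and 69 in the NuMA input, against 91 and 54 in the IgG ChIP libraries and 43 in the IgG input. The NuMA ChIP level was 10.5 ± 0.312 CPM and the IgG ChIP level 142 ± 0.695 CPM (SD, n = 2 each). Both replicate pairs were nearly identical. Choice by the smallest p-value favours such pairs, so this is no measure of replicate agreement, and the IgG ChIP libraries correlated at 0.561 over the windows tested. The corrected difference was -4.52 ± 0.76 (adjusted p = 4.75e-05), a 22.9-fold smaller ratio to input with the NuMA antibody.

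LAMB3, which encodes a chain of the basement membrane protein laminin-332, had no count in either NuMA ChIP library, although the NuMA input had 53. The IgG ChIP libraries had 26 and 24 counts and the IgG input 50. With a floor of 3 counts over the NuMA ChIP group, the ratio to input was at least 28.4-fold lower than with IgG (adjusted p = 0.000201). Here and below, a fold given as "at least" takes the other ChIP counts and the inputs as exact, so it is no confidence bound. CSTF2T, an intronless relative of the RNA cleavage factor CSTF2, had 2 and 3 NuMA ChIP counts over an input of 76, and 25 and 24 IgG ChIP counts over an input of 47. At both promoters the IgG ratios were close to 0 and the difference lay in the NuMA arm, which was -4.81 ± 0.70 at CSTF2T. The corrected difference there was -4.64 ± 0.97 (adjusted p = 0.00111).

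GZMB, the granzyme B gene of cytotoxic lymphocytes, showed the other form. Its IgG ChIP libraries had 66 and 47 counts over an input of 12, and its NuMA ChIP libraries 6 and 14 over an input of 34. The IgG arm was 2.95 ± 0.64 and the NuMA arm -1.68 ± 0.60, and the corrected difference was -4.64 ± 0.87 (adjusted p = 0.000378). IGFL3, of the insulin growth factor-like family, had 57 and 26 IgG ChIP counts over 14, and 13 and 9 NuMA ChIP counts over 50. The low IgG inputs of both windows entered their differences, which for IGFL3 was -4.38 ± 0.91.

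URI1, a prefoldin-like protein, had 6 and 12 NuMA ChIP counts over 76, and 78 and 49 IgG ChIP counts over 57. GABRG1, a subunit of the GABA-A receptor, had 13 and 4 over 53, and 46 and 47 over 27. DBF4B, a regulatory subunit of the replication kinase CDC7, had 16 and 6 over 96, and 52 and 31 over 45. Over the 3 windows the NuMA ratios ran from -3.39 to -2.0 and the IgG ratios from 0.57 to 1.84. Ratios without overlap within a window were a condition of naming. The corrected differences were -3.87 ± 0.74, -4.19 ± 0.82 and -3.70 ± 0.74. AHSG, the liver-made plasma protein fetuin-A, had 0 and 8 NuMA ChIP counts over 52, and 56 and 25 IgG ChIP counts over 34 (-4.49 ± 0.92). IVL, the involucrin of the skin's cornified envelope, had 7 and 0 over 45, and 46 and 26 over 38 (-4.27 ± 0.97).

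MDH1, the cytosolic malate dehydrogenase, had the largest negative value, -5.43 ± 1.5, among called windows with a symbol, non-overlapping ratios, at least 10 counts in each input and at least 4 over each ChIP group. It came from 0 and 4 NuMA ChIP counts over 40 and 23 and 18 IgG ChIP counts over 14. CD3E, a subunit of the T cell receptor complex, had -4.83 ± 1.17, FAM177B -4.71 ± 1.24 and PLA2G12B, of the phospholipase A2 family, -4.26 ± 0.89. At CLDN24, a claudin gene, 2 counts over both NuMA ChIP libraries faced 57 over both IgG ChIP libraries, and the ratio to input was 40.8-fold lower (95% exact interval 10.8 to 345, with the inputs taken as exact). PFDN1, a prefoldin subunit, had 2 against 27 counts and a 33.4-fold lower ratio (8.4 to 290). These intervals cover counting error alone, and PCR reads are not independent molecules. Of the 692 lower windows, 89 passed with any 1 ChIP library left out, including LAMB3, CSTF2T, GZMB, ZNF793, AHSG, IGFL3, IVL, PLA2G12B, GABRG1, URI1 and DBF4B, while 59 did not pass in any of those 4 fits.

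At the threshold itself the windows of LCE3C (-2.50), OR9Q1 (-2.17) and HES4 (2.43) lay just inside, each at an adjusted p of 0.0499. MRS2 (2.46, adjusted p = 0.0501) and 2 windows without a symbol lay just outside, at -2.16 and -2.26.

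The calls in each list of genes were set against the 4.02% lower and 1.21% higher over all windows tested. Over the olfactory receptors, expressed in the nose and silent in most other tissues, 17 of 175 tested windows were lower (9.71%; 4.02% of all) and none higher, and the median corrected difference was -2.17 against -0.17 over all windows. Examples were OR10A4, with 6 and 6 NuMA ChIP counts over 32 and 36 and 38 IgG ChIP counts over 22 (-3.89 ± 1.0), and OR10AD1 (-3.36 ± 0.81). The IgG arm had a median of 1.34 over these windows and the NuMA arm -0.78. Both NuMA ratios lay below both IgG ratios in 139 of the 175 windows (79.4%; 39.3% of all). The lowest member, OR13C9, passed with 0 NuMA ChIP counts and 44 IgG ChIP counts, but its IgG input had 2 counts and no fold is given. OR2B6 had 1 count in the IgG input and passed likewise. OR8K1, the highest member, had 0 counts in the NuMA input and did not pass. The median receptor promoter falls in the quintile with the fewest CG dinucleotides for its base composition, described below. In that quintile 11.5% of windows were lower and the median corrected difference was -1.77. Whether the receptors differ from other windows of like composition was not tested.

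Alpha and beta defensins, antimicrobial peptides of granulocytes and epithelia, followed the same order, with 8 of 31 windows lower (25.8%; 4.02% of all), none higher and a median of -2.35. DEFB127 (-4.33 ± 1.04), DEFB119 (-2.82 ± 0.74) and DEFA6 (-3.66 ± 1.03) were examples. DEFB107B and DEFB114, the extremes of the list, each had 2 counts in the NuMA input. Defensin genes lie in tandem copies, so reads may be shared between them. Among the keratins and keratin-associated proteins of epithelia and hair, 5 of 134 windows were lower, such as KRT77 (-2.89 ± 0.81) and KRT27 (-4.06 ± 1.12). This share of 3.73% was near the 4.02% of all windows, and the median was -1.16. KRT40 had 0 NuMA ChIP counts against 29 with IgG, at least 15.6-fold lower, and KRTAP2-3 had 26 NuMA ChIP counts against 0 with IgG, at least 8.08-fold higher at the same floor; neither passed. The clustered protocadherins of neurons had a median of -1.15, from -3.43 (PCDHB16) to 1.69 (PCDHA7), and none of 49 passed. In all of these 4 families the median IgG arm was above 0 (0.87 to 1.60) and the median NuMA arm below it (-0.78 to -0.14).

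The markers of other cell types were taken as promoter DNA, which does not measure whether the genes are expressed. Blood cell markers had 4 of 24 windows lower, CD3E, NKG7 (-3.01 ± 0.72), FCGR3A (-2.64 ± 0.81) and CD79A (-2.29 ± 0.70), a share of 16.7% against 4.02% of all. Their median was -1.30, with HBA1 highest at 1.48. Liver markers had 1 of 17 lower (AHSG), a share of 5.88% near that of all windows, a median of -2.03, and values from APOB (0.21) down to ADH1B, which had 0 counts in the IgG input. A promoter entry was found for 11 of the 24 blood and 10 of the 17 liver windows. By these, the median promoter of either list falls in the lowest CpG quintile, described below. There 11.5% of windows were lower and the median was -1.77. Whether either list differs from other windows of like composition was not tested. The epithelial list was mixed. Its surfactant genes SFTPA1 (-2.77 ± 0.73) and SFTPB (-2.41 ± 0.71) were lower, 2 of 19 windows (10.5%; 4.02% of all), whereas its median was 0.95 and CLDN3, a tight junction claudin, had 2.35 without passing (adjusted p = 0.0728). Neuron markers (median -0.16, GAD1 -3.19 to ELAVL4 1.79) and germ cell genes (median -0.78, MAGEC1 -2.84 to PIWIL1 1.97) had no call. The fibroblast and matrix list had none in 24 windows and a median of -0.12, with TWIST1 highest at 1.57 and DCN, at 0 counts in the IgG input, lowest.

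Developmental regulators stood at the other end. Among 122 homeobox, PAX, SOX, FOX, GATA and TBX genes outside the HOX clusters, 5 windows were higher (4.1%; 1.21% of all), none was lower, and the median was 1.02. SIX2 had 188 and 88 NuMA ChIP counts over 43 and 34 and 10 IgG ChIP counts over 80 (2.87 ± 0.77). TBX2 (2.74 ± 0.76), FOXF2 (2.62 ± 0.76), FOXK1 (2.28 ± 0.72) and IRX2 (2.97 ± 0.92) were the others, IRX2 in a window that shares 1534 bp with a neighbour. FOXF2 and TBX2 are transcription factors of lung mesenchyme. Values ran from FOXR2 at -3.89 to SOX8, which had 3 counts in the NuMA input, and 82 of the 122 (67.2%; 34.9% of all) had both NuMA ratios above both IgG ratios. WNT, FZD and BMP signalling genes had the highest median of the 26 lists, 1.30, with 30 of 38 windows (78.9%) separated in this way and none past the threshold. BMP6 had 2.72 (adjusted p = 0.0693) and BMP10 -3.47. HOX genes had a median of 0.70 and none of 23 passed, with HOXD9 at 2.24 and HOXC6 at -1.96.

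**Figure D4:**
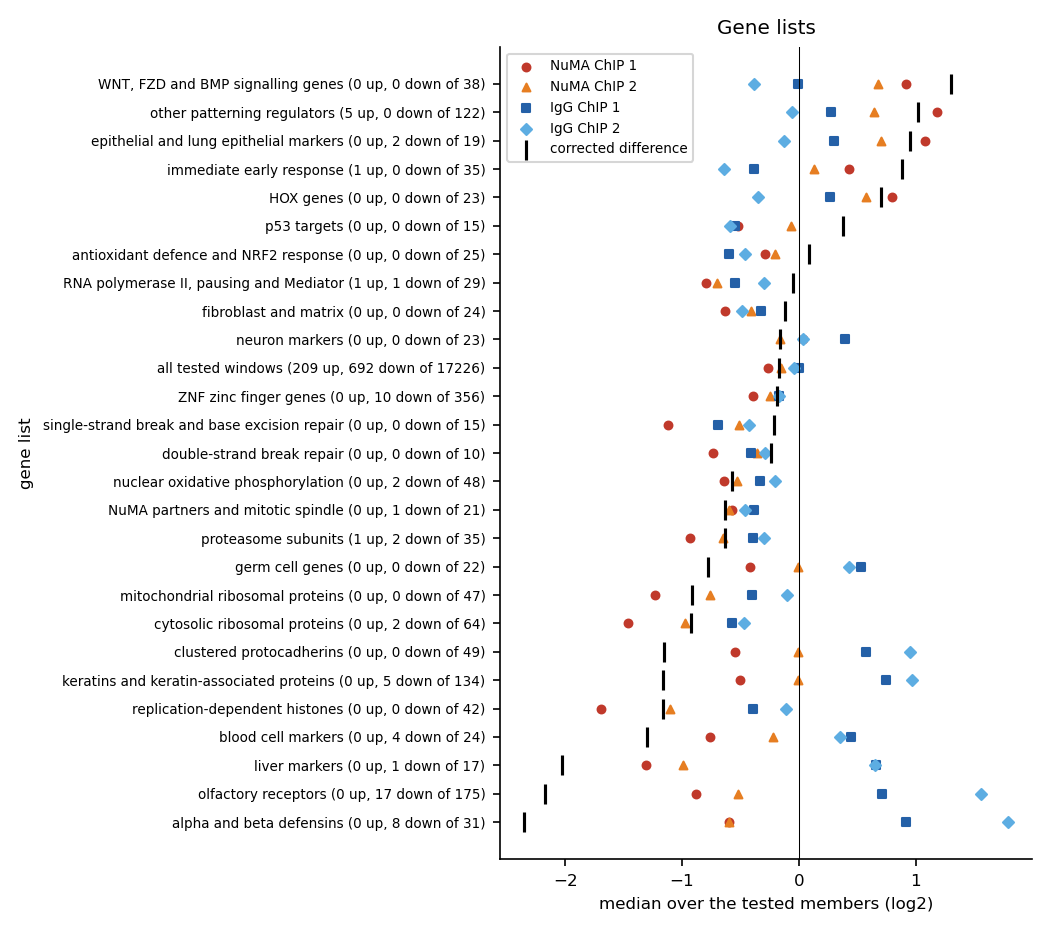
Median over the tested members of each gene list (y axis) of the log2 ratio of each ChIP library to its own input and of the corrected difference (x axis), with the number of windows called in each direction. Olfactory receptors and defensins lie lowest at -2.17 and -2.35, and WNT, FZD and BMP genes highest at 1.30.

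Immediate early genes, which respond first to growth factors and stress, had a median of 0.88, and 1 of 35 windows was higher, TRIB1, a pseudokinase (2.67 ± 0.77). A single call among 35 is little to set against the 1.21% higher over all windows. At JUN, a subunit of AP-1, the counts were 80 and 57 over 88 with NuMA and 19 and 5 over 83 with IgG. All 4 ratios were negative, the IgG ratios more so, and the corrected difference was 1.78 ± 0.71 (adjusted p = 0.109). EGR1 had 0.69 ± 0.71 and FOS 0.05 ± 0.70, and neither passed. ATF3 was lowest at -2.22. The p53 targets (median 0.38, DDB2 -2.14 to MDM2 1.75) and the antioxidant genes (median 0.09, SLC7A11 -1.96 to FTH1 1.98) had no call in 15 and 25 windows.

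Repair genes gave few counts. Of the single-strand break and base excision repair list 15 of 24 windows could be tested, none passed, and the median was -0.21. TDP1, which removes topoisomerase I from DNA ends, had 10 and 3 NuMA ChIP counts over 12 and no IgG ChIP count over 11. This is at least 2.47-fold higher at the floor, did not pass (adjusted p = 0.36), and the window shares 1841 bp with another. PARP1, the sensor of DNA strand breaks, had 43 and 50 over 67 with NuMA and 19 and 14 over 60 with IgG, and a corrected difference of 0.66 ± 0.72. The window of the glycosylase gene MUTYH, which shares 1199 bp with a neighbour, had 0 NuMA ChIP counts over 18 against 32 IgG ChIP counts over 26, at least 11.9-fold lower, and did not pass (adjusted p = 0.0561). Double-strand break repair had none of 10 past the threshold, from BLM (-1.42) to NHEJ1 (1.74). No window was matched to XRCC1. NUMA1 had between 0 and 8 counts in each library and POLR2A between 0 and 2, and neither was tested. Their windows share 1637 and 1900 bp with a neighbour. Of the 3741 windows that overlap another, 1362 could be tested, against 17226 of all 19957. Low counts in such windows therefore cannot be read as a property of the gene.

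For the spindle proteins, 1 of 21 windows was lower, AURKB (-3.15 ± 0.87), the kinase of the chromosomal passenger complex, with 6 and 9 NuMA ChIP counts over 66 and 32 and 23 IgG ChIP counts over 43. This share of 4.76% was near the 4.02% of all windows. EPB41, a membrane skeleton protein that binds NuMA, was highest at 1.87 (adjusted p = 0.094). Of 29 RNA polymerase II and pausing genes, CDK9, the kinase of P-TEFb, was higher (2.33 ± 0.72) and SUPT16H, a subunit of the histone chaperone FACT, was lower (-2.72 ± 0.89), while MNAT1 had the lowest value, -2.98, without passing. Again these were single calls in a short list, 3.45% in each direction, against 4.02% lower and 1.21% higher over all windows.

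Housekeeping lists lay below the median window, while their shares of lower calls, 3.12% for cytosolic ribosomal proteins, 4.17% for oxidative phosphorylation and 5.71% for the proteasome, were near the 4.02% of all windows. Cytosolic ribosomal proteins had a median of -0.92, with RPL32 (-3.30 ± 1.09) and RPL37 (-2.57 ± 0.82) lower among 64 and RPL13 highest at 1.85. Mitochondrial ribosomal proteins had -0.91 and no call in 47, with MRPL40 at 1.55 and MRPL43 at 0 NuMA ChIP and 3 IgG ChIP counts. Nuclear oxidative phosphorylation genes had -0.57, with UQCRB (-2.87 ± 0.92) and ATP5MGL lower among 48, ATP5ME highest at 2.20 and NDUFA11, with 1 count in the IgG input, lowest. Proteasome subunits had -0.63, with PSMB7 (-3.18 ± 0.92) and PSMB10 (-2.96 ± 0.94) lower among 35. The assembly chaperone PSMG1 (2.25 ± 0.71) was the single higher call of that list, a share of 2.86% against 1.21% of all. Replication-dependent histones had -1.16 and none of 42 passed, with H3C13 at 1.55 and H2BC12 at least 3.28-fold lower from 0 NuMA ChIP and 11 IgG ChIP counts. In these 5 lists both arms had a negative median. In the ZNF zinc finger genes, 10 of 356 were lower (2.81%; 4.02% of all), ZNF793, ZNF85 (-3.40 ± 1.04) and ZNF93 (-2.57 ± 0.81) among them. Their median of -0.19 was near that of all windows, ZNF25 was highest at 2.75, and ZNF544 had 0 NuMA ChIP and 10 IgG ChIP counts.

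Under scaling on the metagene flanks the list medians moved up with all windows, to a median of 1.19 over all. Those of the olfactory receptors, defensins and liver markers then stayed below 0 (-0.75, -0.78 and -0.59), while those of the keratins, protocadherins, blood markers, ribosomal proteins and histones turned positive and lay below that median.

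Base composition and input depth went with the corrected difference. A RefSeq promoter entry inside the window was found for 10615 of the 17226 tested (61.6%), and for 145 of the 209 higher and 350 of the 692 lower windows. As fewer than 80% of either called set had a sequence, a check of base composition over the calls as sets is void, and the quintiles describe only the windows with an entry. In the quintile with the fewest CpG dinucleotides relative to base composition (observed over expected 0 to 0.334), 245 of 2123 windows (11.5%) were lower, 2 were higher, and the median corrected difference was -1.77. In the quintile with the most (0.948 to 1.51), 10 of 2122 (0.471%) were lower, 57 (2.69%) were higher, and the median was 0.64. The 2 arms ran in opposite directions, the median ratio going from -0.96 to 0.17 in the NuMA arm and from 0.71 to -0.45 in the IgG arm. Each of the 4 ChIP libraries followed the direction of its arm, with medians in the lowest quintile of -1.02 and -0.76 for NuMA and 0.44 and 0.75 for IgG. The gene lists differed in this property. The median observed over expected was 0.13 in the olfactory receptors, 0.14 in the defensins and 0.17 in the keratins, within the lowest quintile. Liver markers (0.18) and blood cell markers (0.25) also fell in it. The median was 0.8 in the developmental regulators outside the HOX clusters, within the third quintile. There 1.6% of windows were higher and the median corrected difference was 0.40. In the quintile with the lowest GC percent (24.3 to 52.3), 0.231% of windows were higher, 6.89% were lower, and the median was -1.67. In the highest (73.0 to 94.0), 4.46% were higher, 0% were lower, and the median was 1.11. The WNT, FZD and BMP genes had a median GC percent of 73.7, within the highest quintile, over 23 windows with an entry.

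Input counts were the other property. In the quintile with the lowest mean input count (up to 21.5) the median corrected difference was -1.65, in the highest (64.5 to 230) it was 0.56. The IgG arm went from 1.09 to -0.38 and the NuMA arm from -0.45 to 0.06. In the lowest quintile the second IgG ChIP library had a median ratio of 1.28 and the first 0.35, and the median standard error was 1.90 against 0.73 in the highest quintile. Calls were fewest there, 1.0% lower and 0.371% higher. How much of the difference follows base composition or depth was not tested.

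**Figure D5:**
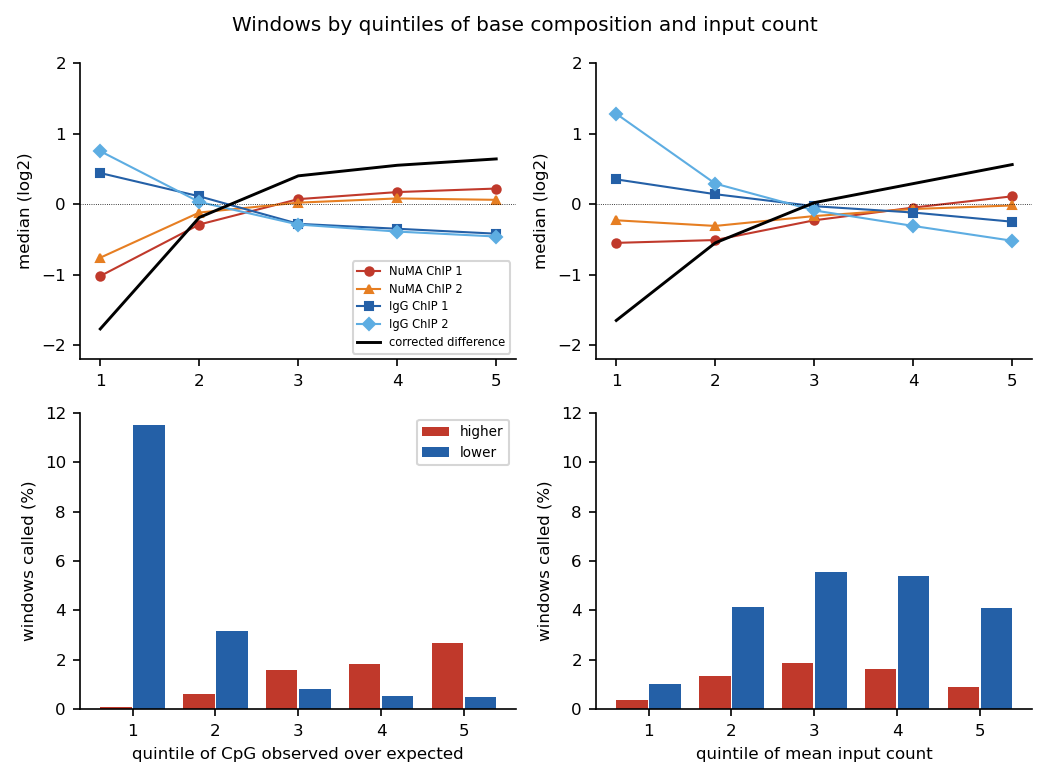
Top, median log2 ratio of each ChIP library to its own input and median corrected difference by quintile of CpG observed over expected (left) and of mean input count (right); bottom, percentage of windows called in each quintile. The NuMA libraries pass above the IgG libraries from the third CpG quintile and from the highest 2 input quintiles on, and lower calls reach 11.5% in the lowest CpG quintile.

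Across chromosomes the share of lower windows ranged more than that of higher ones. Chromosome 20 had 45 of 491 windows lower (9.16%), chromosome 11 had 74 of 1129 (6.55%) and chromosome 1 had 111 of 1802 (6.16%), against 2 of 202 (0.99%) on chromosome 21 and 7 of 699 (1.0%) on the X. Higher windows made up 2.74% of chromosome 10, 2.6% of chromosome 18 and 2.48% of chromosome 4, against 0.421% of chromosome 3. Of the 20 windows tested on the Y, 1 was higher and 1 lower. Windows without a gene symbol had a median of -1.26 and 6.59% lower, and those with one 0.03 and 3.46%. Chromosomes and named genes differ in the gene families they hold, and no test was made between them.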

How the data were processed

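Per the file headers and the labels, the promoter table the authors deposited holds raw counts per 2001 bp window, with no normalization. Tools listed in the submitters' processing notes are featureCounts, BWA 0.7.17-r1188, MACS2 and bedtools, with the build hg38 and no roles; how read pairs, strand and overlapping windows were counted is not given in the sources used here. Counts of 6 to 10 were even in 72.7% to 79.8% of windows, so mates may have been counted separately. Library totals ran from 366594 to 1080879 counts, and 1 count equals 1.14 to 2.62 CPM. The correlation of log2 CPM was 0.893 between the NuMA ChIP libraries, 0.561 between the IgG ChIP libraries and 0.871 between the inputs. The deposited metagene signal, unscaled coverage around start and termination sites, served only for 1 scaling alternative (500 outermost positions each side).

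Counts were fitted with edgeR 4.0.16 in R 4.3.3: 1 coefficient per group over all 6 libraries, filterByExpr (minimum count 10, in effect about 14.3 CPM in at least 1 library), TMM, quasi-likelihood F-tests and Benjamini-Hochberg adjustment over 17226 windows, threshold 0.05, with 2 residual degrees of freedom. Standard errors come from the log2 value and F. The ratio per library is a log2 CPM difference with a prior count of 2. For a group at 0 the fold uses a floor of 3 counts over the group; for 1 to 3 counts it has a 95% Clopper-Pearson interval. The fits were tested on simulated data in which every library, inputs included, was drawn with the fitted spread. That simulation therefore cannot check whether a single input varies like the ChIP libraries.

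Symbols came from the nearest protein-coding RefSeq 5′ end within 1000 bp on the window's strand (16295 windows, 81.7%; 2.58% after a shift of 20000 bp). An overlap with a neighbouring window affects 3741 windows (18.7%); 679 were empty in every library. The members, the 26 lists and the alternatives (DESeq2 1.42.0, limma 3.58.1, scalings, filters, inputs, left-out libraries) were chosen with earlier results of these data known. Named were the 10 largest differences and 5 smallest p-values in each direction among separated windows with at least 10 counts in each input, decreases with at most 3 counts in a ChIP group (3 were found), each list's extremes, 8 fixed genes and the 3 windows nearest the threshold on each side; other called list members are examples.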

Additional observations from a re-analysis of the deposited data

Results flagged for a closer look

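The difference between the NuMA and the IgG arm, each over its own input, was itself the test, as an interaction of antibody and pull-down. It passed in 209 windows where the ratio to input was higher with the NuMA antibody and in 692 where it was lower. Their make-up by arm and by input is given with the results.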

How the results depend on the processing

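The 901 calls were 1.21% of windows tested higher and 4.02% lower. With DESeq2 size factors and Wald test they became 0 (0% and 0%), and with scaling on metagene flanks 82 (0.47% and 0.00581%). Total counts as library size gave 828, of which 705 lower (0.714% and 4.09%), and moved the median of all windows by -0.23. There were 50 calls with at least 30 counts in each library (0.403% and 2.47% of 1738 windows), 1396 with at least 20 in each input (2.01% and 8.45%), 312 with limma-trend (0.697% and 1.11%) and 395 with a test above 1.5-fold (0.331% and 1.96%). Exchanged inputs gave 643 (0.453% and 3.28%), the mean of both inputs 6261 (15.9% and 20.5%), thinning to the smallest total 465 (0.767% and 2.04%), and halved counts 1111 (1.84% and 4.99%). Leaving out 1 ChIP library gave 284 to 1958 calls, 0.155% to 6.67% higher and 1.54% to 4.7% lower. Without a count filter (767 calls) and without overlapping windows (853) all counts stayed within 1.5 times. The causes of these changes were not tested.

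With the replicate number as a block 1957 windows were called, 1007 higher (5.85%) and 950 lower (5.51%), including 209 of the 209 and 687 of the 692. Same-numbered NuMA and IgG libraries had deviations correlated at 0.174, and with 2 pairs and no statement in the labels the numbers are not taken to pair the samples.

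Of the 901 calls, 27 took the other sign with exchanged inputs, 1 without IgG ChIP 2 and none under the other settings. Fitted log2 values of 15 named windows changed sign, of which OR2B6 and DEFB127 were called. With exchanged inputs they were 3.88 at ADH1B, 3.65 at DCN, 0.90 at NDUFA11, 2.23 at OR2B6, 0.03 at DEFB127, 3.15 at DEFB114, 0.73 at SLC7A11, -0.13 at FOS, -1.38 at PCDHA7, -0.14 at NHEJ1, -0.38 at ATP5ME, -4.66 at OR8K1 and -0.69 at SOX8. With the mean of both inputs they were -0.82 at OR8K1 and -0.04 at FOS. FOS had -0.16 with total counts, -0.14 with at least 20 counts in each input, and -0.21 to 0.50 with 1 ChIP library left out (-0.09 without IgG ChIP 2). APOB had -0.04 with total counts and -0.26 when thinned. DEFB107B had 0.11 with DESeq2, 1.24 with flanks, 0.25 and 0.54 without NuMA ChIP 1 or IgG ChIP 1, and 0.05 without overlapping windows. Setting groups at 0 counts to the floor moved no list median by more than 0.23. No difference under 4-fold was called at this depth.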
